A study of Mus musculus with 9 samples.

Results

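The genes described here encode receptors and transporters for glutamate, the main excitatory transmitter of the brain. The list names 28 genes, and its members were found by matching the RefSeq accession of each array probe to those symbols. A named probe was found for 24 of the 28, out of 16358 genes named on the array, while Grik3, Grin3a, Grm2 and Grm5 were not analysed here. Of the 24 genes, 20 were well above background on all 9 arrays, Grin2a and Slc17a7 on 6, Grm4 on 2 and Grm6 on 0. The comparisons between regions and diets covered 22 members of 12622 genes, leaving out Grm4 and Grm6.

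Glutamate is loaded into synaptic vesicles by vesicular transporters and, once released, opens 3 families of ion channel receptor, named AMPA, kainate and NMDA after their ligands. AMPA receptors carry most fast excitation, kainate receptors tune transmission on both sides of the synapse, and NMDA receptors, built from the obligatory subunit GluN1 with GluN2 or GluN3 subunits, pass calcium and serve plasticity. Metabotropic receptors act through G proteins, and transporters of the plasma membrane take glutamate up again. In cortex and hypothalamus, excitatory neurons differ in which vesicular transporter they use, with VGLUT1 the usual one of cortical neurons and VGLUT2 that of hypothalamic and thalamic neurons.

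All mice were wild-type C57BL/6J males of 8 to 9 weeks, killed on day 8 at 14:00 under diethyl ether and perfused with saline. The AD group ate freely and was the control, the RFR group alternated between a day of fasting and a day of free feeding, and the CR group received a set part of what the RFR mice ate on a feeding day. Amygdala and hypothalamus were taken from slices 1.5 to 2.5 mm behind bregma and prefrontal cortex, according to the labels, from 2.5 to 3.5 mm behind it. Equal amounts of RNA from 4 mice of a group were pooled and 400 ng was labelled with Cy3, which makes 1 one-colour Agilent array for each region under each diet, 9 in all.

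Each value below is the log2 processed signal of a gene's probe relative to the 75th percentile of its array, and a difference of 1 is 2-fold. Probes bind with different strength, so levels are compared for 1 gene between arrays and not between genes. On each array 59.8% to 69.6% of the spots were well above background, and the number of arrays limits the precision. For regions, the AD, CR and RFR arrays served as the 3 repeats, and p-values measure the spread between these arrays. The 9 arrays lay on 3 slides. Slide 1 held the 3 AD arrays and RFR prefrontal cortex, slide 2 held CR and RFR hypothalamus, RFR amygdala and CR prefrontal cortex, and CR amygdala was alone on slide 3.

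The dissections were checked with marker genes, as the summed level of each marker list relative to the array's 75th percentile. The 16 measured markers of hypothalamic neurons summed to 382 to 465 on the hypothalamus arrays, 12.9 to 20.9 in amygdala and 2.26 to 3.14 in prefrontal cortex. Such a sum follows its brightest probes and does not give the level of each marker. The 11 markers of cortical excitatory neurons summed to 90.2 to 97.1 in prefrontal cortex, 36.6 to 40.1 in amygdala and 11.4 to 14.5 in hypothalamus, where Tbr1 and Neurod6 were not well above background. The brightest of them was Lmo4, with means of 6.07 in prefrontal cortex, 4.62 in amygdala and 3.39 in hypothalamus. Singly, limma called 10 of the 11 lower in hypothalamus than in prefrontal cortex and 0 higher, against 21.3% and 26.7% of all genes. The 7 thalamic markers summed to 9.46 to 10.1 in hypothalamus, 4.05 to 5.54 in amygdala and 2.86 to 3.39 in prefrontal cortex. In hypothalamus the brightest of these 7 was Calb2 (mean 2.61). Singly, 5 of the 7 were called higher and 2 lower in hypothalamus than in prefrontal cortex. The 10 markers of inhibitory neurons summed to 153 to 180 in hypothalamus and amygdala but 86.8 to 107 in prefrontal cortex. In bulk tissue, fewer cells of a type and less RNA per cell cannot be told apart.

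Among the 22 tested members, the vesicular transporter genes Slc17a7 and Slc17a6 had the widest fitted differences between hypothalamus and prefrontal cortex. The fitted difference of Grin2a (-3.44) rests on hypothalamus values that were not well above background, so its rank below Slc17a6 is not settled. The promoter sequences of the 3 vesicular transporter genes are shown here because Slc17a7 and Slc17a6 differed between hypothalamus and prefrontal cortex in opposite directions and Slc17a8, on its brighter probe, went with Slc17a6. Each is the 250 bases before the most upstream RefSeq start in build GRCm38.p6, 5′ to 3′ along the gene. The windows are chr7:45163671-45163920 on the plus strand (Slc17a7), chr7:51621580-51621829 on the plus strand (Slc17a6) and chr10:89621250-89621499 on the minus strand (Slc17a8). Capitals mark the E-box CANNTG, which basic helix-loop-helix factors can bind, and the GC box GGGCGG, which Sp factors can bind, on either strand.
Slc17a7: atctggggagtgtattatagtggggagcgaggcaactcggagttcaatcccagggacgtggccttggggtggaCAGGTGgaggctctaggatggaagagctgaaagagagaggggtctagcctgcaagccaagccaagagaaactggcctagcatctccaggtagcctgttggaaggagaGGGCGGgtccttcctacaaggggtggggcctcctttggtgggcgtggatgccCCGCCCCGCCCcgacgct
Slc17a6: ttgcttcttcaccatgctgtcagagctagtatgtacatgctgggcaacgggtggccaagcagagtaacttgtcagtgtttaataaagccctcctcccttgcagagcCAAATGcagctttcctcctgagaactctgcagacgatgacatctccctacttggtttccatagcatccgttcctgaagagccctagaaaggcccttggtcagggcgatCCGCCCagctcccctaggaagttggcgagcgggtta
Slc17a8: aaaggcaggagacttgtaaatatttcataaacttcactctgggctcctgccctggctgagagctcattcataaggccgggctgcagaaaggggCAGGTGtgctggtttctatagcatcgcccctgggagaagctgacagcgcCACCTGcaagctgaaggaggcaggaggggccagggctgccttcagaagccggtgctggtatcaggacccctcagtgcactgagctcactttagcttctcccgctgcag
Slc17a7 held 3 GC boxes, at 70, 18 and 13 bases before the start, where the last 2 share 1 base, and 1 E-box at 177. Slc17a6 held 1 GC box at 36 bases and 1 E-box at 144, and Slc17a8 held no GC box and 2 E-boxes, at 157 and 108. Among the 24 members with a probe, 17 had a promoter window, of which 9 held a GC box and 9 an E-box, against 33.0% and 66.1% of 27018 genes. The median share of G and C was 62.0% in the member windows and 52.0% over all genes. Its part in the GC box count was not tested. The cyclic AMP response element TGACGTCA was in none of the 17 windows and in 1.6% of genes. These matches describe letters in a window and not binding.

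Slc17a7 encodes VGLUT1. It stood at 2.06, 2.05 and 2.03 on the AD, CR and RFR arrays of prefrontal cortex, at 0.92, 0.93 and 0.64 in amygdala, and at -7.26, -6.25 and -7.10 in hypothalamus, where no array had it well above background. The 3 regions did not overlap, and prefrontal cortex varied by only 0.01 (SD, n = 3). Measured against the lowest signal that was well above background on the hypothalamus arrays, it was at least 132-fold higher in prefrontal cortex and at least 57.0-fold higher in amygdala (limma, adjusted p = 1.1e-06 and 6.3e-06 for the fitted differences). These bounds hold on the processed signal. Under normexp background correction, which adds an offset of 50 to every signal, the fitted differences came to 54.9-fold and 24.3-fold (limma adjusted p = 1.8e-09 and 3e-08), below both bounds. Amygdala was lower than prefrontal cortex by 2.32-fold (log2 difference -1.21 ± 0.21 SE, limma adjusted p = 0.0071). With slide as a fixed term that difference was -0.94 (adjusted p = 0.13), within slide 1 it was -1.13, and without the RFR pool it was -1.13 (adjusted p = 0.12).

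Slc17a6 encodes VGLUT2 and ran the other way. It stood at 2.41, 2.58 and 2.39 in hypothalamus and 2.19, 2.52 and 1.88 in amygdala, but at -1.44, -0.96 and -1.53 in prefrontal cortex. Every prefrontal cortex array was below every array of the other regions, by 13.6-fold against hypothalamus (3.77 ± 0.12, limma adjusted p = 2e-06) and 11.4-fold against amygdala (3.51 ± 0.12, adjusted p = 1.3e-05). Amygdala and hypothalamus overlapped, with a difference of -0.26 (95% interval -0.54 to 0.02). A second Slc17a6 probe gave 3.77 and 3.60 for the same 2 contrasts. The Slc17a6 value minus the Slc17a7 value of the same array was -3.36 ± 0.30 in prefrontal cortex and 1.36 ± 0.19 in amygdala (SD, n = 3), a shift between these regions of 4.72 log2 units. The amygdala thus stood near hypothalamus for Slc17a6 and within 2.32-fold of prefrontal cortex for Slc17a7. In amygdala minus prefrontal cortex, thalamic markers went the way of Slc17a6, with 5 of 7 higher and 1 lower (median 1.06). So did hypothalamic markers, with 9 of 15 higher and 1 lower (median 2.04), against 12.1% and 10.2% of all genes. In amygdala minus hypothalamus, where Slc17a6 gave no call, hypothalamic markers were higher for 0 of 15 and lower for 13 (median -4.09). Thalamic markers there were higher for 1 of 7 and lower for 3 (median -0.09), against 13.5% and 15.9% of all genes. The part of these cells in the Slc17a6 differences was not tested.

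Slc17a8 encodes VGLUT3, a transporter also found in neurons that use other main transmitters. Its brighter probe stood at -0.46, -1.02 and -0.75 in hypothalamus, -0.93, -0.74 and -0.89 in amygdala and -2.13, -2.74 and -2.43 in prefrontal cortex, which lay below both without overlap (1.69 ± 0.16 and 1.58 ± 0.16, limma adjusted p = 0.0002 and 0.00085). A second, dimmer probe of the gene did not show this. It differed by -0.06 between hypothalamus and prefrontal cortex, and in amygdala it was lower than in prefrontal cortex (-0.81, adjusted p = 0.031 in a fit of single probes). The direction for Slc17a8 therefore depends on the probe, and with the mean of all its probes the 2 differences were 0.82 and 0.39 (limma adjusted p = 0.00084 and 0.041).

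**Figure D1:**
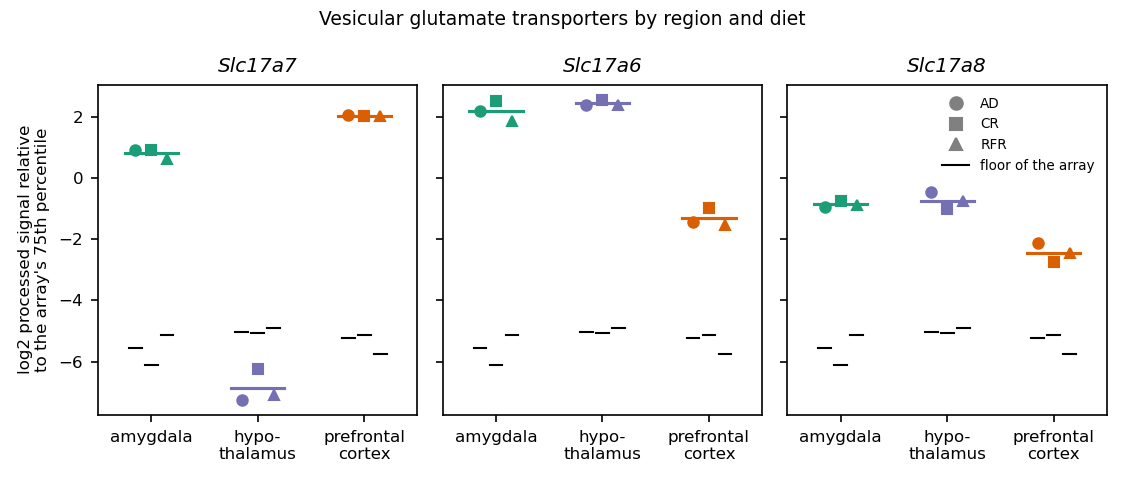
Values of the 3 vesicular transporter genes on the 9 arrays, as log2 processed signal relative to the array's 75th percentile (y axis) by region (x axis), with 1 point per array, a coloured line at the mean of 3 arrays and a black dash at the lowest signal well above background on each array. Slc17a7 lies under that floor on all 3 hypothalamus arrays and at 2.03 to 2.06 in prefrontal cortex, while Slc17a6 is lowest in prefrontal cortex.

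Slc1a1, which encodes the neuronal uptake transporter EAAC1, was lower in hypothalamus than in both other regions. It stood at 2.21, 2.28 and 2.18 in hypothalamus, 3.07, 2.78 and 2.68 in amygdala and 2.72, 2.85 and 2.75 in prefrontal cortex. Hypothalamus lay below both without overlap (-0.55 ± 0.12 against prefrontal cortex, limma adjusted p = 0.0079, and 0.62 ± 0.12 for amygdala minus hypothalamus, adjusted p = 0.0086). A second probe gave -0.64 and 0.58, both past the threshold. The first call ended without the CR pool (-0.54, adjusted p = 0.052) or the RFR pool (-0.54, adjusted p = 0.084), and the second without AD hypothalamus (0.57, adjusted p = 0.051) or the RFR pool (0.68, adjusted p = 0.081).

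Over all 22 tested members, limma called 16 between hypothalamus and prefrontal cortex (6 higher and 10 lower in hypothalamus), against 48.0% of all genes tested (26.7% higher and 21.3% lower). It called 9 between amygdala and hypothalamus (7 higher and 2 lower in amygdala), against 29.4% (13.5% and 15.9%), and 9 between amygdala and prefrontal cortex (5 higher and 4 lower in amygdala), against 22.3% (12.1% and 10.2%). At least 1 of these contrasts was called for 17 members, against 53.0% of genes. Hypothalamus was lower than both other regions for 7 members (Gria2, Gria3, Grin2a, Grin2b, Grin2c, Slc17a7 and Slc1a1), a pattern that 11.1% of all genes had. Prefrontal cortex was lower than both for 5 members (Gria1, Grik1, Grik2, Slc17a6 and Slc17a8; 10.2% of genes) and higher than both for 3 (Grin2a, Grm3 and Slc17a7; 8.66%). Only Grin3b among the 22 was higher in hypothalamus than in both others (13.8% of genes), only Grik4 was lower in amygdala than in both (1.13%), and 0 members were higher in amygdala than in both (1.77%). No region stood apart from both others for 7 members (63.8%). The arrays of the regions compared did not overlap for any of the 34 called differences, so pairs of arrays on 1 slide have the sign of the fit by construction. A call from 3 arrays per region favours such a gap, which is therefore no separate evidence. Uncalled differences showed it too, such as Grm7 in amygdala minus prefrontal cortex and Grid1 in hypothalamus minus prefrontal cortex. The share over all genes was not counted.

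**Figure D2:**
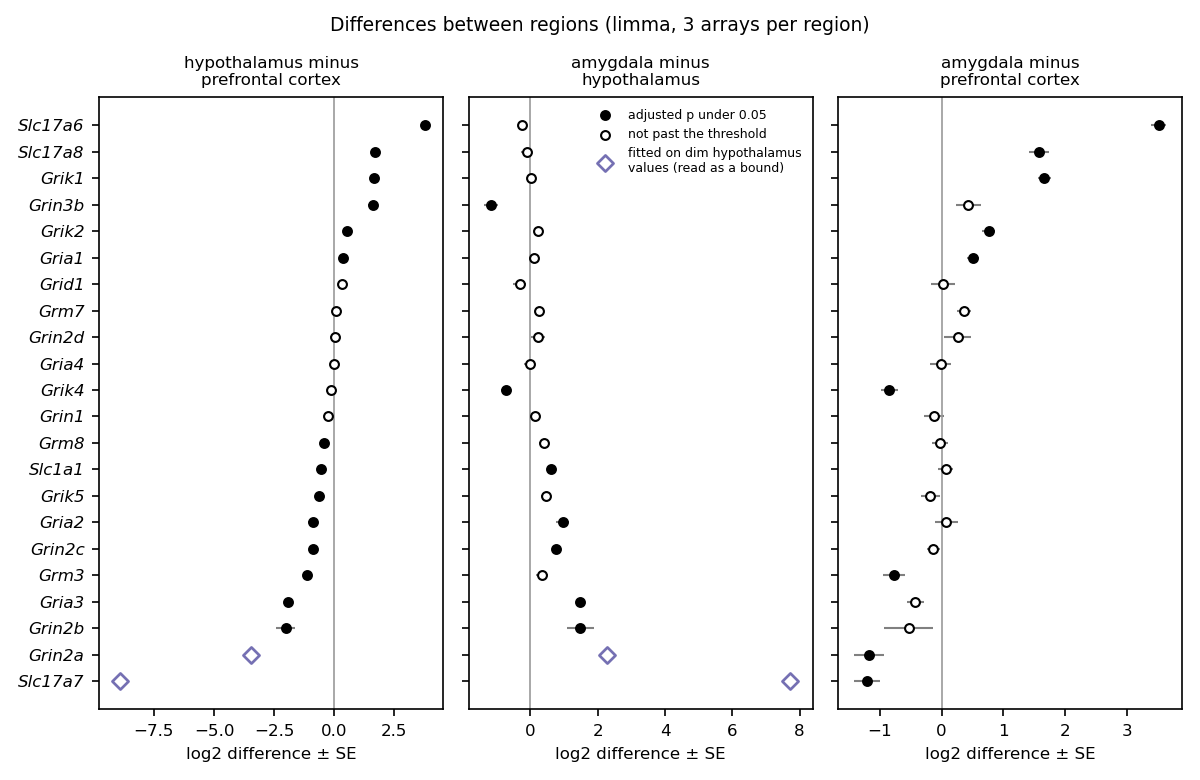
Log2 differences between regions for the 22 tested members, with bars of 1 SE from limma (3 arrays per region), ordered by the first panel. Filled points passed an adjusted p of 0.05, and open diamonds mark Slc17a7 and Grin2a, whose fitted differences rest on hypothalamus values under background and are read as bounds. In hypothalamus minus prefrontal cortex 6 members lie past the threshold on the right and 10 on the left.

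The AMPA receptor genes divided by subunit. Gria2 encodes GluA2, which keeps the channel from passing calcium. It stood at 3.49, 4.07 and 3.94 in hypothalamus, 4.50, 4.99 and 4.65 in prefrontal cortex and 5.0, 4.66 and 4.72 in amygdala. Hypothalamus lay below both (-0.88 ± 0.19 against prefrontal cortex, limma adjusted p = 0.0077, and 0.96 ± 0.19 for amygdala minus hypothalamus, adjusted p = 0.0093), while amygdala and prefrontal cortex overlapped (0.08, 95% interval -0.36 to 0.53). A second Gria2 probe gave -0.86 and 1.04, both past the threshold. Without the RFR pool both calls ended (-0.96 and 1.05, adjusted p = 0.067 and 0.088).

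Gria3, the gene of GluA3, showed the widest difference of the AMPA subunit genes between hypothalamus and prefrontal cortex. It stood at 0.59, 0.37 and 0.71 in hypothalamus against 2.52, 2.32 and 2.55 in prefrontal cortex and 2.39, 1.69 and 2.05 in amygdala. Hypothalamus was 3.74-fold lower than prefrontal cortex (-1.90 ± 0.13, limma adjusted p = 3.7e-05) and 2.80-fold lower than amygdala (1.49 ± 0.13, adjusted p = 0.00034), and the second probe gave -1.82 and 1.54. Amygdala minus prefrontal cortex was -0.42 (95% interval -0.72 to -0.11, adjusted p = 0.061), and it passed the threshold with quantile scaling (-0.39, adjusted p = 0.048), median scaling (-0.55, adjusted p = 0.044), only genes well above background on all 9 arrays (-0.42, adjusted p = 0.048) or trended and robust variances (-0.42, adjusted p = 0.034). It also passed without AD amygdala (-0.57, adjusted p = 0.0063) and without the AD pool (-0.56, adjusted p = 0.032).

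Gria1, which encodes GluA1, was instead lowest in prefrontal cortex, by a small margin. It stood at 4.85, 4.67 and 5.0 there, 5.15, 5.25 and 5.27 in hypothalamus and 5.36, 5.25 and 5.43 in amygdala. The differences were 0.38 ± 0.10 for hypothalamus and 0.51 ± 0.10 for amygdala against prefrontal cortex (limma adjusted p = 0.019 and 0.013). They are less firm than those of Gria2 and Gria3. The first fell short of the threshold under median scaling (0.25, adjusted p = 0.13), with the mean of both probes (0.33, adjusted p = 0.059), and without any 1 of the arrays AD hypothalamus (0.43), CR hypothalamus (0.30), AD prefrontal cortex (0.40) or CR prefrontal cortex (0.32), and without each pool (0.29 to 0.44). The second fell short under median scaling (0.37, adjusted p = 0.064), with slide as a fixed term (0.59, adjusted p = 0.068), without AD (0.52) or CR (0.44) prefrontal cortex, and without each pool (0.47 to 0.54). Gria4, the gene of GluA4, had means of -0.46, -0.44 and -0.45 in amygdala, hypothalamus and prefrontal cortex and no call. The interval of its difference was -0.40 to 0.42 between hypothalamus and prefrontal cortex, and its 3 probes did not move together between arrays, with CR minus AD in amygdala at 0.83, -0.24 and -0.84.

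Of the kainate receptor genes, Grik1 and Grik2 were lower in prefrontal cortex than in both other regions. Grik1, which encodes GluK1, stood at -1.15, -1.05 and -0.69 in prefrontal cortex, 0.53, 0.60 and 0.91 in hypothalamus and 0.65, 0.44 and 0.98 in amygdala. Both other regions were about equally far above it (1.64 ± 0.10 and 1.66 ± 0.10, limma adjusted p = 2.5e-05 and 9.7e-05), and a second probe gave 1.65 and 1.93. Of the 10 markers of inhibitory neurons, 5 were higher and 2 lower in hypothalamus than in prefrontal cortex, against 26.7% and 21.3% of all genes. In amygdala 6 were higher and 2 lower than in prefrontal cortex, against 12.1% and 10.2%. Pvalb and Vip, which mark classes of cortical interneuron, were the lower ones (-3.14 and -1.84 in hypothalamus, -2.96 and -1.60 in amygdala). The part of these cells in the Grik1 difference was not tested. Grik2, the gene of GluK2, stood at -2.76, -3.05 and -2.80 in prefrontal cortex, -2.34, -2.48 and -2.17 in hypothalamus and -2.24, -2.18 and -1.92 in amygdala (0.54 ± 0.11 and 0.76 ± 0.11, limma adjusted p = 0.0055 and 0.003). The first was 0.33 under normexp (adjusted p = 0.035). The second fell short with slide as a fixed term (0.62, adjusted p = 0.055), and both without the RFR pool (0.50 and 0.70, adjusted p = 0.083 for each). Amygdala minus hypothalamus for Grik2 was 0.22 (95% interval -0.04 to 0.47) and passed only without AD amygdala (0.31, adjusted p = 0.044).

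The high-affinity kainate subunits differed from these. Grik4, which encodes GluK4, was lowest in amygdala, with 2.31, 2.25 and 2.33 against 2.77, 3.27 and 3.04 in hypothalamus and 2.92, 3.16 and 3.35 in prefrontal cortex (-0.73 ± 0.13 and -0.84 ± 0.13, limma adjusted p = 0.0074 and 0.005). The difference from hypothalamus fell short without the CR pool (-0.58, adjusted p = 0.062) or the RFR pool (-0.74, adjusted p = 0.082). The difference from prefrontal cortex fell short with slide as a fixed term (-0.61, adjusted p = 0.069) and without the RFR pool (-0.76, adjusted p = 0.10). Grik5, the gene of GluK5, was lower in hypothalamus (2.58, 2.74 and 2.69) than in prefrontal cortex (3.30, 3.30 and 3.34), by -0.64 ± 0.15 (limma adjusted p = 0.011). This call ended without AD hypothalamus (-0.54, adjusted p = 0.053), CR prefrontal cortex (-0.59, adjusted p rounding to 0.05) or the RFR pool (-0.64, adjusted p = 0.11). Amygdala minus hypothalamus for Grik5 was 0.46 (95% interval 0.11 to 0.81, adjusted p = 0.058), and with slide as a fixed term it was 0.64 (adjusted p = 0.028). It also passed under normexp (0.43, adjusted p = 0.045), quantile scaling (0.47, adjusted p = 0.031), only genes well above background on all 9 arrays (0.46, adjusted p = 0.044) and trended and robust variances (0.46, adjusted p = 0.03). Without CR amygdala it was 0.63 (adjusted p = 0.012), and without the CR pool 0.65 (adjusted p = 0.038). In amygdala the CR array (2.81) lay below the AD and RFR arrays (3.38 and 3.2).

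**Figure D3:**
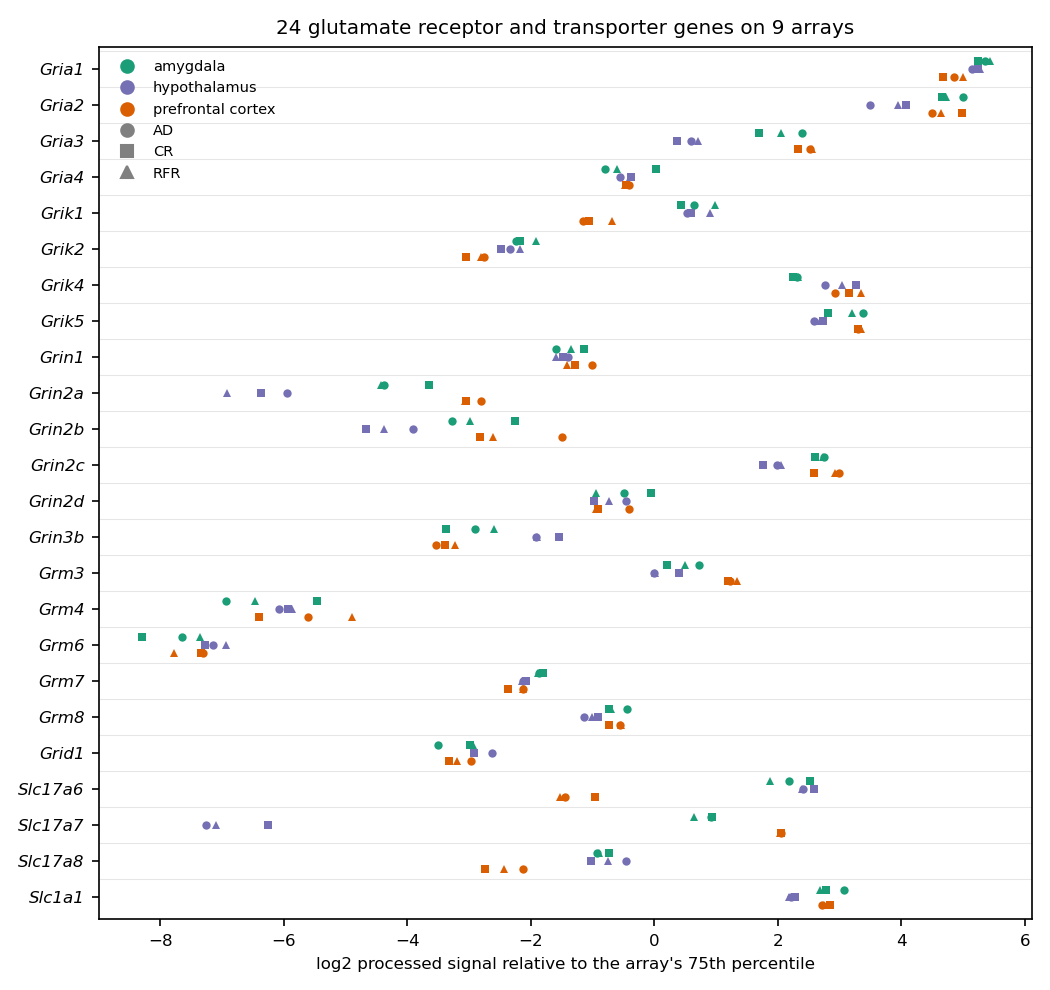
Log2 processed signal relative to the array's 75th percentile (x axis) for the 24 members with a probe (y axis), with 1 point per array, coloured by region and shaped by diet. Positions along the axis are compared within a gene only. For Slc17a6 and Grik1 the prefrontal cortex arrays lie apart from the rest, for Slc17a7 and Grin2a the hypothalamus arrays do, and Grm4 and Grm6 lie mostly under background.

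Among the NMDA receptor genes Grin2a, Grin2b, Grin2c and Grin3b differed between regions, whereas Grin1 and the GluN2 gene Grin2d gave no call. Grin2a, which encodes GluN2A, the subunit typical of mature forebrain synapses, stood at -2.81, -3.04 and -3.07 in prefrontal cortex, -4.37, -3.64 and -4.42 in amygdala and -5.95, -6.36 and -6.92 in hypothalamus, where it was not well above background. Against the floor of the hypothalamus arrays it was at least 4.07-fold higher in prefrontal cortex and at least 1.81-fold higher in amygdala (limma, adjusted p = 3.9e-05 and 0.0007 for the fitted differences). Under normexp the fitted differences were 2.55-fold and 1.56-fold (limma adjusted p = 5.1e-05 and 0.011), below both bounds. Amygdala was lower than prefrontal cortex by -1.17 ± 0.24 (adjusted p = 0.013), and under normexp by -0.71 (adjusted p = 0.0083). That call ended with slide as a fixed term (-1.31, adjusted p = 0.057) and without RFR amygdala (-1.18, adjusted p = 0.059), AD prefrontal cortex (-1.14, adjusted p rounding to 0.05), RFR prefrontal cortex (-1.02, adjusted p = 0.065) or the RFR pool (-1.08, adjusted p = 0.14).

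Grin2b encodes GluN2B, a subunit that gives slower-decaying currents. Its values were -1.50, -2.82 and -2.61 in prefrontal cortex, -3.28, -2.25 and -2.99 in amygdala and -3.91, -4.67 and -4.38 in hypothalamus. All hypothalamus arrays were below all others, by 4.03-fold against prefrontal cortex (-2.01 ± 0.40, limma adjusted p = 0.0054). Under normexp it was -1.28, or 2.43-fold (adjusted p = 0.0013). Without the RFR pool that call ended (-2.13, adjusted p = 0.064). The difference of 1.48 ± 0.40 between amygdala and hypothalamus (adjusted p = 0.031) was 0.91 with slide as a fixed term (adjusted p = 0.081) and lost its call with no filter on dim genes (1.48, adjusted p = 0.06). Under normexp it was 0.79 (adjusted p = 0.028). It also fell short without CR amygdala (0.97), RFR amygdala (1.47), AD hypothalamus (1.60), CR hypothalamus (1.29) or RFR hypothalamus (1.56), and without the CR (1.01) or RFR pool (1.53), with adjusted p from 0.066 to 0.19. Amygdala and prefrontal cortex overlapped, and the interval of their difference ran from -1.47 to 0.41. The second Grin2b probe gave -1.62 and 1.3 for hypothalamus minus prefrontal cortex and amygdala minus hypothalamus (adjusted p = 0.011 and 0.042 in a fit of single probes). Its CR and RFR hypothalamus values (-5.41 and -4.93) were under the lowest signal well above background on those arrays (-5.08 and -4.89). Both differences of this probe thus rest partly on dim values.

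Grin2c, the gene of GluN2C, stood at 1.99, 1.76 and 2.06 in hypothalamus against 2.99, 2.59 and 2.92 in prefrontal cortex and 2.75, 2.60 and 2.74 in amygdala. Hypothalamus was lower than both without overlap (-0.90 ± 0.10 and, for amygdala minus hypothalamus, 0.76 ± 0.10, limma adjusted p = 0.00032 and 0.0017). Grin3b, which encodes the glycine-binding subunit GluN3B, went the opposite way. It stood at -1.92, -1.54 and -1.89 in hypothalamus, -2.90, -3.37 and -2.59 in amygdala and -3.54, -3.38 and -3.22 in prefrontal cortex. Hypothalamus was 3.03-fold above prefrontal cortex (1.60 ± 0.20, limma adjusted p = 0.00074) and 2.25-fold above amygdala (adjusted p = 0.006), and under normexp the first difference was 1.04, or 2.06-fold (adjusted p = 0.00038). Amygdala minus prefrontal cortex was 0.43 (95% interval -0.06 to 0.91), and it passed the threshold with slide as a fixed term (0.81, adjusted p = 0.049) or without CR amygdala (0.70, adjusted p = 0.022).

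Grin1, which encodes the obligatory subunit GluN1, ranged from -1.59 to -1.0 over all 9 arrays, and the regions overlapped. The 95% intervals were -0.63 to 0.11 for hypothalamus minus prefrontal cortex, -0.24 to 0.51 for amygdala minus hypothalamus and -0.49 to 0.25 for amygdala minus prefrontal cortex. Without AD amygdala the first 2 differences passed the threshold (-0.26 and 0.34, limma adjusted p = 0.04 and 0.042). Grin2d, the gene of GluN2D, ranged from -0.97 to -0.05, with an interval of -0.50 to 0.57 between hypothalamus and prefrontal cortex. The Grin2d value minus the Grin2a value of the same array was 2.22 ± 0.15 in prefrontal cortex and 3.65 ± 0.20 in amygdala (SD, n = 3), a shift of 1.43 log2 units. Grin2d itself gave no call between those regions (0.26, limma adjusted p = 0.46). Grin2a was lower in amygdala by -1.17, or -0.71 under normexp, and that call ended in 5 alternatives.

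**Figure D4:**
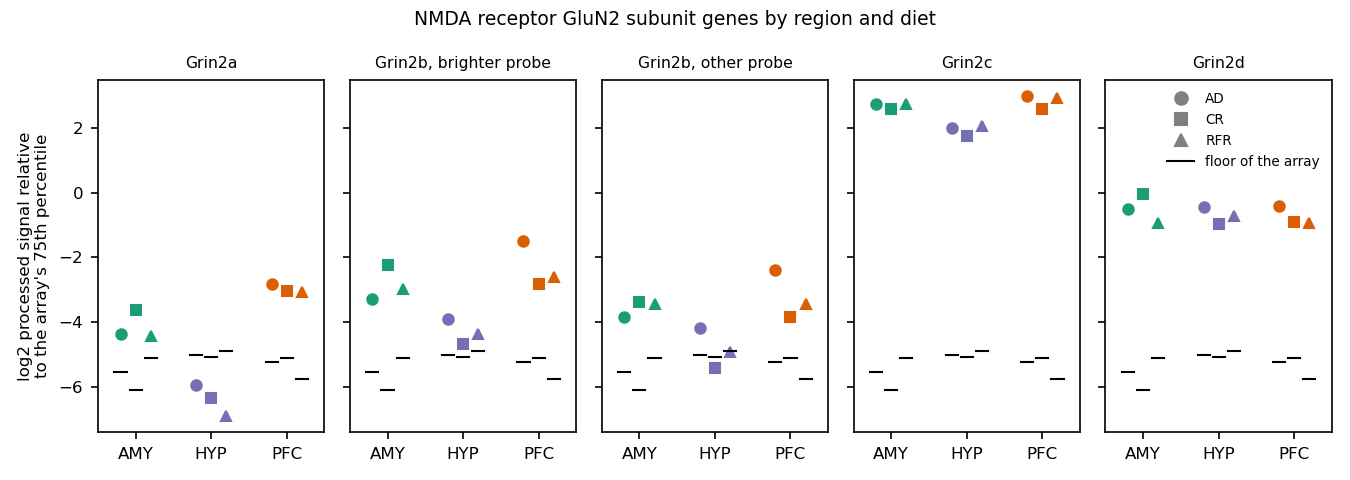
Log2 processed signal relative to the array's 75th percentile (y axis) for the GluN2 subunit genes in amygdala (AMY), hypothalamus (HYP) and prefrontal cortex (PFC), with 1 point per array and a black dash at the lowest signal well above background on that array. Both Grin2b probes are drawn, and on both the AD array of prefrontal cortex is the highest of the 9 (-1.50 and -2.38).

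Of the metabotropic receptor genes, Grm3 encodes mGlu3, a receptor of neurons and astrocytes that lowers cyclic AMP. It stood at 1.22, 1.19 and 1.34 in prefrontal cortex, above 0.72, 0.21 and 0.50 in amygdala and -0.01, 0.40 and 0.02 in hypothalamus (limma: hypothalamus -1.11 ± 0.18, adjusted p = 0.0021, and amygdala -0.77 ± 0.18, adjusted p = 0.022, each minus prefrontal cortex). Prefrontal cortex overlapped with neither. The amygdala difference was -0.43 with slide as a fixed term (adjusted p = 0.18). It fell short without RFR amygdala (-0.79), CR amygdala (-0.59), AD (-0.81), CR (-0.80) or RFR prefrontal cortex (-0.70) or the RFR pool (-0.74), with adjusted p from 0.055 to 0.19, and the hypothalamus difference without the RFR pool (-1.0, adjusted p = 0.051). The 8 measured astrocyte markers summed to 153 to 163 in prefrontal cortex, 137 to 154 in amygdala and 179 to 211 in hypothalamus. Of the 8, 3 were higher and 0 lower in hypothalamus than in prefrontal cortex, against 26.7% and 21.3% of all genes. The part of astrocytes in the Grm3 difference was not tested.

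Grm8, which encodes the presynaptic receptor mGlu8, stood at -1.14, -0.91 and -1.01 in hypothalamus and -0.55, -0.73 and -0.54 in prefrontal cortex (-0.42 ± 0.13, limma adjusted p = 0.033). This small difference lost its call with no filter on dim genes (-0.42, adjusted p = 0.059), with slide as a fixed term (-0.35, adjusted p = 0.13), and without AD (-0.30) or RFR hypothalamus (-0.43), any 1 of the AD (-0.41), CR (-0.48) and RFR (-0.37) prefrontal cortex arrays, or the AD (-0.33) or RFR pool (-0.39). Grm7, the gene of the presynaptic receptor mGlu7, ranged from -2.36 to -1.80 with no call, although its 3 amygdala arrays (-1.87, -1.80 and -1.88) were above all others (0.36 against prefrontal cortex, 95% interval 0.11 to 0.61, adjusted p = 0.054). Grm4 was well above background on CR amygdala (-5.46) and RFR prefrontal cortex (-4.89) and on no other array. Grm6, known from retinal bipolar cells, was well above background on no array. Grid1, which encodes the delta receptor GluD1, ranged from -3.50 to -2.63, with a hypothalamus minus prefrontal cortex interval of -0.13 to 0.80. Without AD amygdala, the differences of hypothalamus and of amygdala from prefrontal cortex passed the threshold for Grid1 (0.34 and 0.30, limma adjusted p = 0.0088 and 0.042).

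Proteins that travel with these receptors were examined as lists. Of 11 measured auxiliary subunits of AMPA and kainate receptors, 7 were lower and 2 higher in hypothalamus than in prefrontal cortex, with a median difference of -0.55 against 0.06 for all genes, of which 21.3% were lower and 26.7% higher. Cacng3 (-2.94), Cnih3 (-2.68) and Shisa7 (-2.01) were lower and Cacng5 (2.40) was higher (limma adjusted p = 1.9e-06, 5.1e-05, 0.00017 and 9.8e-06). Of 15 scaffold and signalling genes of the postsynaptic density, 12 were lower in hypothalamus and 1 higher, with a median of -1.16. The widest were Camk2a, a kinase of synaptic plasticity (-3.05), Dlgap1 (-2.98), Homer1 (-2.85) and Dlgap2 (-2.63), with limma adjusted p of 2.1e-05, 2.2e-06, 6.9e-05 and 2.7e-06. In amygdala 11 of the 15 were higher than in hypothalamus and 1 lower (13.5% and 15.9% of all genes), and 7 were lower than in prefrontal cortex and 0 higher (10.2% and 12.1%). Pan-neuronal markers were lower in hypothalamus for 5 of 10 and higher for 0 (median -0.40), and oligodendrocyte markers higher for 11 of 11 (median 1.23). The part of the neuronal and glial share of each dissection in these differences was not tested.

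The comparison of diets asked whether restricted or alternating feeding changed these genes. Over the 3 regions limma called 0 of 22 members in CR minus AD (0.0% of all genes), 0 in RFR minus AD (0.0158%) and 0 in CR minus RFR (0.0158%). At an unadjusted p under 0.05 there were 3, 1 and 5 members, against 16.5%, 6.16% and 14.8% of all genes. Even these p-values are too small, since all regions of 1 diet were dissected from the same mice. CR minus AD and RFR minus AD share the AD arrays. All AD arrays lay on slide 1 and the CR arrays on slides 2 and 3, so in CR minus AD diet cannot be told apart from slide. RFR and AD shared a slide only in prefrontal cortex, and CR and RFR only in hypothalamus.

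The members with an unadjusted p under 0.05 each had 1 direction in all 3 regions on the probe used, the brightest of its gene. The 3 regions are the repeats of this fit, so choosing members by p favours those with 1 direction. Their agreement over regions is therefore no separate evidence. Grik1 was higher on the RFR than on the AD array by 0.34 in amygdala, 0.39 in hypothalamus and 0.45 in prefrontal cortex (0.39 ± 0.10, limma adjusted p = 0.62), and lower on the CR than on the RFR array by -0.54, -0.32 and -0.36 (adjusted p = 0.19). Slc17a6 was higher on the CR than on the AD array by 0.33, 0.16 and 0.48 in the same order (0.32 ± 0.12, adjusted p = 0.27), and higher than on the RFR array by 0.64, 0.19 and 0.56 (0.47 ± 0.12, adjusted p = 0.19). Gria3 on the CR array was below AD by -0.70, -0.21 and -0.20 (adjusted p = 0.25) and Grin2c by -0.15, -0.23 and -0.40 (adjusted p = 0.27). Against RFR, the CR arrays were lower for Gria3 by -0.36, -0.34 and -0.24, for Grik2 by -0.26, -0.31 and -0.25 and for Grin2c by -0.13, -0.3 and -0.33. The second probes of 3 of these genes did not keep 1 direction. The second Grik1 probe gave -0.33, 0.11 and 0.02 for RFR minus AD and 0.16, -0.16 and 0.08 for CR minus RFR. The second Slc17a6 probe gave 0.15, -0.20 and 0.67 for CR minus AD and 0.41, -0.03 and 1.08 for CR minus RFR. The second Gria3 probe gave 0.16, -0.28 and -0.49 for CR minus AD and 0.60, -0.13 and 0.05 for CR minus RFR. None of the differences fitted over regions passed the adjusted threshold.

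Without amygdala, whose CR array is alone on its slide, limma called 2 of 22 members in CR minus AD, against 9.67% of genes. They were Grin2b (-1.04, adjusted p = 0.0497) and Slc17a8 (-0.59, adjusted p = 0.043), with 2 residual degrees of freedom left. The CR arrays of these 2 regions share slide 2 and the AD arrays share slide 1, and diet therefore cannot be told apart from slide.

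Within a region each diet has 1 array, so no test was possible, and a difference of at least 2-fold between arrays that both had the gene well above background was counted. Grin2b alone among the measured members reached it, in 3 of the 9 comparisons. In the other 6 the count was 0, against 1.47% (RFR minus AD) and 2.16% (CR minus RFR) of genes in amygdala, 1.34%, 0.69% and 0.528% in hypothalamus (CR minus AD, RFR minus AD and CR minus RFR) and 0.819% in prefrontal cortex (CR minus RFR). In prefrontal cortex it was lower on the CR array by -1.32 and on the RFR array by -1.10 than on the AD array, where 1.13% and 0.971% of genes were at least 2-fold different. RFR and AD prefrontal cortex lay on the same slide. In amygdala it was higher on the CR than on the AD array by 1.04, where 3.26% of genes were at least 2-fold different, and in hypothalamus it was lower by -0.76. The 2 prefrontal cortex differences rest on 1 AD array, whose Grin2b value (-1.50) stood above the other 8 (-4.67 to -2.25).

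The second Grin2b probe gave the same signs, with -1.46 and -1.06 in prefrontal cortex, 0.47 in amygdala and -1.22 in hypothalamus, where its CR value was under the floor of the array. Under normexp background correction the differences of the brighter probe were -1.04 and -0.76 in prefrontal cortex and 0.52 in amygdala. In amygdala the other scalings left it just under 2-fold (0.96 with quantile and 0.94 with median scaling), as did the mean of both probes (0.75). In the authors' deposited table, whose values are ratios to the AD array, the 3 differences were 1.17 in amygdala and -1.22 and -1.10 in prefrontal cortex. Beside them, oligodendrocyte markers were higher for 9 of 11 on the CR than on the AD array of both amygdala and prefrontal cortex (median 0.24 in each), and inhibitory markers for 9 of 10 in prefrontal cortex (median 0.27). Meningeal markers were lower for 9 of 9 in prefrontal cortex on the CR array (median -0.58). On the RFR against the AD array of prefrontal cortex, oligodendrocyte markers were higher for 2 of 11 (median -0.26), inhibitory markers for 9 of 10 (median 0.21) and pan-neuronal markers for 2 of 10 (median -0.23). Their part in the Grin2b differences was not tested. For CR minus AD, in every region, the diet cannot be told apart from the slide.

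The other measured members lay between -0.70 (Gria3) and 0.83 (Gria4) in CR minus AD in amygdala, with 11 of 22 higher and 11 lower overall. The median absolute difference there was 0.34 for members and 0.28 for all genes. RFR minus AD in amygdala ran from -0.45 (Grin2d) to 0.58 (Grid1). In hypothalamus Gria2 was highest in both comparisons with AD (0.57 in CR and 0.45 in RFR), and CR and RFR, which share a slide there, differed by -0.34 (Gria3) to 0.38 (Grm3). In prefrontal cortex 16 of 22 members were lower and 6 higher on the CR than on the AD array, with a median of -0.18 against -0.03 for all genes, and on the RFR array 11 were lower and 11 higher. Gria2 was the highest member there in CR minus AD (0.49) and Grik1 in RFR minus AD (0.45).

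**Figure D5:**
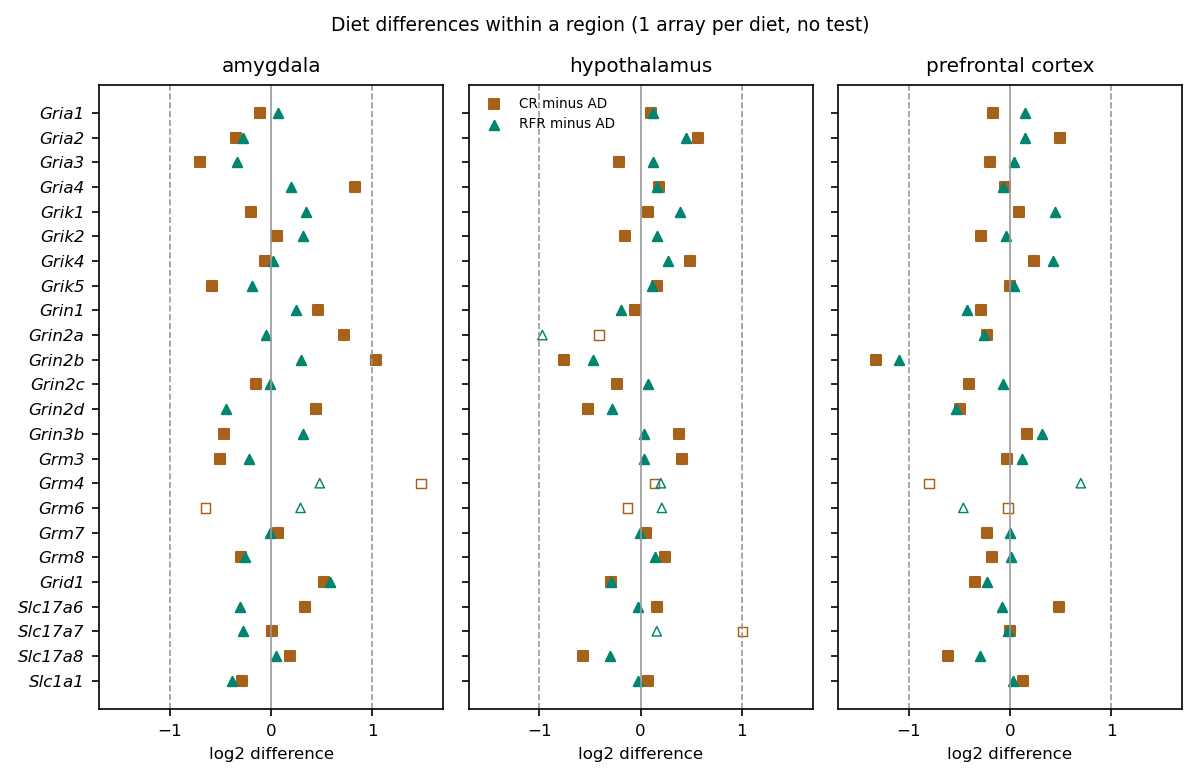
Log2 differences of the CR and RFR arrays from the AD array (x axis) for the 24 members with a probe (y axis), in each region. Filled symbols mark members well above background on both arrays, open symbols those that were not, and dashed lines mark a 2-fold difference. Grin2b is the only filled symbol past a dashed line, at 1.04 in amygdala and at -1.32 and -1.10 in prefrontal cortex.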

How the data were processed

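Messenger RNA was measured on 9 one-colour Agilent arrays, 1 per region and diet, each with RNA pooled from 4 mice. Per the file headers, the deposited processed signal is an intensity from Agilent Feature Extraction 9.5.1.1, background-subtracted within the array, and the deposited median spot and background signals are intensities too. Deposited quality flags (other than measurements) show which spots were saturated, outliers or well above background. A further table by the authors holds a ratio per probe. Tested against the scanner files, 99.3% to 99.4% of the entries matched, to within 0.01 on the log2 scale, each array's processed signal over that of the region's AD array after 1 constant per array.

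From these, the log2 processed signal was taken minus the 75th percentile of the 43379 noncontrol spots, outliers were dropped, and repeat spots of a probe were averaged. Of 41174 probes, 22951 matched a symbol through their RefSeq accession (GRCm38.p6 table, used for names and promoter windows), and 18223 did not. The brightest probe stood for its gene, and 10 members had several. Genes well above background on at least 3 arrays with at least 6 values were fitted in limma 3.58.1 (R 4.3.3) as region plus diet, with 4 residual degrees of freedom, adjusting p by Benjamini-Hochberg over 12622 genes (threshold 0.05). Intervals are 95%. The fit was tested on simulated data. Where a gene was not well above background on all arrays of a region, the fold is a bound against the higher of its value and the lowest signal well above background. All members are reported, and of other lists at most 4 genes. These have the widest called differences between hypothalamus and prefrontal cortex, are defining markers or are the brightest of a summed list. The members and lists were chosen with earlier results of these data known. Alternatives changed background correction (normexp, offset 50, on median signals), scaling, filter, probe choice, variance model and slide term, and left out arrays, pools or regions. Python 3.11.15 was used for the rest.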

Additional observations from a re-analysis of the deposited data

Results flagged for a closer look

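The CR minus AD difference of Grin2b, which encodes the NMDA receptor subunit GluN2B, was 1.04 in amygdala and -1.32 in prefrontal cortex, a gap of 2.36 log2 units between the regions. It stands out because, under the main processing, the single CR array lay above the AD array in amygdala and below it in prefrontal cortex, each by at least 2-fold. The amygdala difference fell under 2-fold with normexp (0.52), quantile scaling (0.96) and median scaling (0.94). It also did so on the second probe (0.47) and with the mean of both probes. In both regions the CR and AD arrays lay on different slides, so diet cannot be told apart from slide. With 1 array per region and diet, the gap between the regions was not tested.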

How the results depend on the processing

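Of the 34 differences between regions that limma called among the members, 25 kept their direction and call under every alternative other than leaving out arrays or pools, and 16 under those too, with 0 reversed. Of the 32 uncalled differences 18 changed sign under some alternative, and in 25 cases over all alternatives one passed the threshold (Gria3, Grid1, Grik2, Grik5, Grin1, Grin3b, Grm7, Grm8 and Slc17a8). The count between amygdala and prefrontal cortex was 4 instead of 9 when slide was a fixed term and fewer residual degrees of freedom remained. Leaving out arrays or pools gave 8 to 18 members between hypothalamus and prefrontal cortex, 5 to 11 between amygdala and hypothalamus, 3 to 11 between amygdala and prefrontal cortex and, leaving out arrays or regions, 0 to 2 in CR minus AD; the lowest counts came without the RFR pool (2 arrays per region), which ended 18 of the 34 calls, and the 2 without amygdala. The count of members at least 2-fold different was 0 instead of 1 for CR minus AD in amygdala under normexp, quantile scaling, median scaling and the mean of all probes, and 0 instead of 1 for RFR minus AD in prefrontal cortex under normexp. Grin2a minus Grin2b, compared as amygdala minus hypothalamus, was 0.79 and under normexp -0.16; Grin2a was not well above background in hypothalamus, and the cause was not tested. Raising dim values to the floor, and fitting each probe by itself, were chosen after seeing the data. With each probe fitted, 14 of 16 called differences had the same sign on another probe, the exceptions both being Slc17a8. The contrasts between regions are paired by the diet term of the fit, since the same mice gave every region of a diet; diets within a region have 1 array each. Signal over background limits Grin2a and Slc17a7 in hypothalamus to bounds and leaves Grm4 and Grm6 without a comparison.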

Other observations

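Of 12 tested genes of glutamate synthesis and recycling, 3 were higher and 4 lower in hypothalamus than in prefrontal cortex, against 48.0% of all genes called in either direction. Ddo, which encodes D-aspartate oxidase, was higher by 1.60 and Slc38a1, a neuronal glutamine transporter, by 0.68 (limma adjusted p = 9.5e-05 and 0.0011). Srr, the serine racemase that makes the NMDA receptor co-agonist D-serine, was lower by -0.64 and Glul, the glutamine synthetase of astrocytes, by -0.61 (adjusted p = 0.0019 and 0.0036).

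Of 9 tested receptors and transporters outside the member list, 4 were higher and 1 lower in the same contrast, also against 48.0%. Slc1a2, the main astrocytic uptake transporter, stood at means of 1.25 in hypothalamus, 2.02 in amygdala and 2.34 in prefrontal cortex and was lower in hypothalamus by -1.08 (limma adjusted p = 0.00011). Slc1a6 was higher in hypothalamus by 1.59 and Slc1a4 by 0.83 (adjusted p = 9.2e-05 and 0.00083).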
